A study of Mus musculus with 18 samples.

Results

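The fractalkine receptor gene Cx3cr1, the fractalkine gene Cx3cl1 and 6 further receptor genes, Ccr1, Ccr2, Ccrl2, Cxcr4, Ackr3 and Cmklr1, were followed by name in sorted microglia and astrocytes of mice with or without alleles of Tgfb1 that can be deleted in Cx3cr1-expressing cells. They are 8 of the 35869 gene symbols in each library. The tested mice, called KO here, carried the tamoxifen-inducible recombinase Cx3cr1CreERT2 and Tgfb1fl/fl, alleles of the transforming growth factor beta 1 gene that the recombinase can delete. The mice called WT carried Cx3cr1CreERT2 without Tgfb1fl/fl, so every group held the driver allele, and every mouse received 5 doses of tamoxifen at 180 mg/kg by oral gavage. All were of the C57BL/6 background, and the labels do not give their age. Brains were dissociated with enzymes in the presence of inhibitors, and microglia and astrocytes were taken by flow cytometry. The libraries described were of KO microglia (n = 4), WT microglia (n = 4, animals 1, 2, 4 and 5), KO astrocytes (n = 4) and WT astrocytes (n = 5), 17 of the 18 in the series, and the other library has labels that name different cell types. Recombination is limited to cells that express Cx3cr1, which in the brain are microglia and the macrophages at its borders. Cx3cr1 is therefore both a measured gene and the locus of the driver, whose number of copies per mouse the labels do not give.

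Chemokines are small secreted proteins that guide cells through receptors with 7 membrane spans, most of which signal through inhibitory G proteins and are switched off by arrestins. Fractalkine, the product of Cx3cl1, is a chemokine with a membrane anchor; in the brain it is made mainly by neurons, and its receptor CX3CR1 is a hallmark of microglia. Proteases can shed fractalkine from the membrane. CCR1 and CCR2 are receptors for inflammatory CC chemokines, CXCR4 and ACKR3 both bind CXCL12, and CMKLR1 and CCRL2 bind chemerin, the product of Rarres2. ACKR3 and CCRL2 are atypical receptors, which take up or present their ligand without classical G protein signalling. TGF-beta signals through SMAD proteins and is needed for the mature gene expression of microglia.

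Values were in TPM, a share of transcripts scaled for transcript length, in which every library sums to a fixed total, and the read depth behind a value is not kept. In bulk sorted cells fewer cells of a type and less RNA per cell cannot be told apart. Between 12903 and 13127 genes reached 1 TPM in KO microglia, against 12456 to 12849 in WT microglia, and between 14674 and 15484 in KO astrocytes, against 14086 to 15011 in WT astrocytes. Tgfb1 was at 1.8, 1.3, 1.7 and 2.0 TPM in KO microglia, against 3.4, 2.9, 2.9 and 2.8 TPM in WT microglia. These values did not overlap, and the difference of -0.57 in log2(TPM + 1) had an exact two-sided permutation p of 0.0286, the smallest that 4 against 4 libraries can give. The 12 microglia markers summed to between 31496 and 34666 TPM in KO microglia and between 67777 and 71272 TPM in WT microglia. Of these markers 9 fell in KO microglia, where 14.2% of all genes tested were called lower. The 12 astrocyte markers summed to between 18409 and 32888 TPM in KO astrocytes and between 25317 and 28710 TPM in WT astrocytes. Y-linked RNA was present in 3 WT animals and absent from the other 2 and from all KO animals, so genotype results are also given against each kind of WT animal.

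All 8 genes matched a promoter in RefSeq (GRCm38.p6, the mm10 build that the submitters' processing notes name). The 250 bases upstream of the annotated start are shown for 3 genes on which the microglial results turn: Cx3cr1 and Ccr1, which were lower in KO microglia, and Cx3cl1, which was higher. Each is written 5′ to 3′ on the gene's own strand, and capitals mark every match to CAGAC (the core of a SMAD-binding element), GAGGAA (the core of the site of PU.1, a myeloid transcription factor) or TATAAA (the TATA box), each searched on both strands. The windows are chr9:120068297-120068546 on the minus strand for Cx3cr1, chr9:123968693-123968942 on the minus strand for Ccr1 and chr8:94771930-94772179 on the plus strand for Cx3cl1.
Cx3cr1: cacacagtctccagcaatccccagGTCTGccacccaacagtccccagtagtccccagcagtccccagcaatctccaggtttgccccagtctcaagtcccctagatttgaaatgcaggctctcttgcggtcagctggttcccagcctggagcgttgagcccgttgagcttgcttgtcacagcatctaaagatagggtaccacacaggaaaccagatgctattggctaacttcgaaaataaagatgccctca
Ccr1: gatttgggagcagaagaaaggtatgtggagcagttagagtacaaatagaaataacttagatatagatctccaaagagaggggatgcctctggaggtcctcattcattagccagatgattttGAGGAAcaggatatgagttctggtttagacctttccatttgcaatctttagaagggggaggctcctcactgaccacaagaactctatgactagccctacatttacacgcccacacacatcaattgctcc
Cx3cl1: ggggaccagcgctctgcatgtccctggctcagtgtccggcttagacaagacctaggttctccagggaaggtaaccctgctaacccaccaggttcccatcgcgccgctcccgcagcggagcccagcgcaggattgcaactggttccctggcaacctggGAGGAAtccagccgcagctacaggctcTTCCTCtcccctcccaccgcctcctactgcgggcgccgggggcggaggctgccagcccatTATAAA
The Cx3cr1 window held CAGAC, read on the opposite strand as GTCTG, and the Ccr1 window held GAGGAA. The Cx3cl1 window held GAGGAA on both strands, once as TTCCTC, and ended in TATAAA. Of 32851 mouse promoter windows of the same length, 42.2% held CAGAC, 23.3% held GAGGAA and 12.4% held TATAAA. Over the 10 windows of the 8 genes, CAGAC was in those of Cx3cr1, Ccrl2 and Cmklr1, GAGGAA in those of Ccr1, Cmklr1 and Cx3cl1, and TATAAA in those of Ackr3, Cx3cl1 and Cxcr4. A match is a description of letters and not a measured binding site.

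KO microglia had less RNA of Cx3cr1, Ccr1 and Ccr2 and more of Cx3cl1 than WT microglia. Of the 8 genes, 6 reached the level needed for the test, at least 1 TPM in at least 4 libraries, and with limma at an adjusted p under 0.05 the count was 1 higher, 3 lower and 2 not past the threshold. In the same comparison 28.4% of the 13054 genes tested were called, 14.2% higher and 14.2% lower. The median difference over the 6 genes was -0.80 in log2(TPM + 1), against 0.0040 over all genes tested. TPM values of KO and WT microglia did not overlap for 5 of the 8 genes, 2 higher and 3 lower in KO, and 4 of the 5 were among the 6 tested. Over all genes tested 30.6% did not overlap, 14.8% higher and 15.7% lower in KO.

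**Figure D1:**
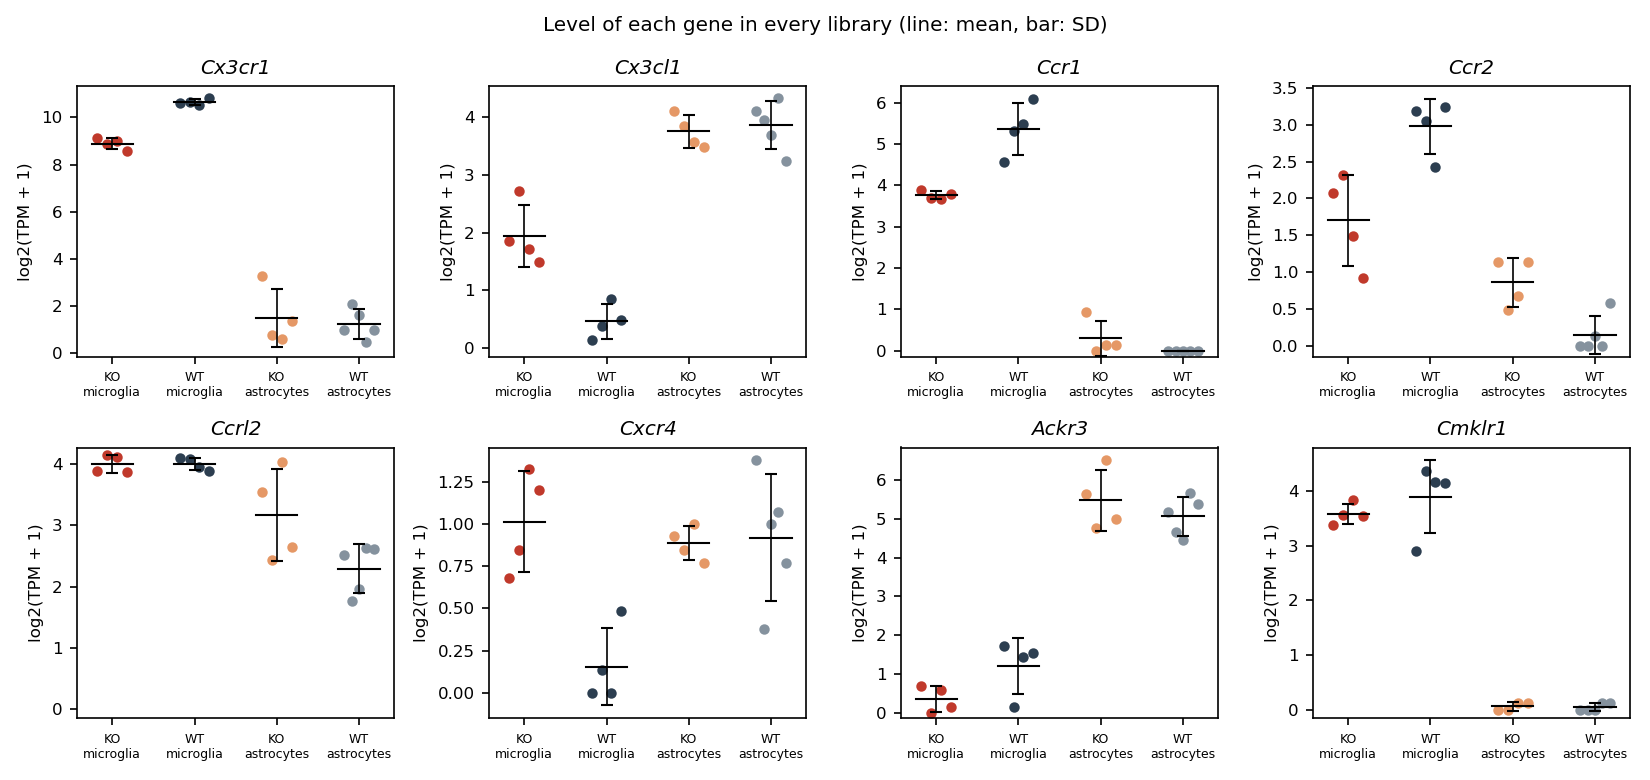
Level of each of the 8 genes in log2(TPM + 1) (vertical axes, each with its own range) in every library of KO microglia, WT microglia, KO astrocytes and WT astrocytes. Each point is 1 library, lines are means and bars SD. Cx3cr1, Ccr1 and Ccr2 sit lower in KO than in WT microglia, Cx3cl1 sits higher, and Ackr3 and Cx3cl1 are highest in astrocytes.

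Cx3cr1 (chr9:120048683-120068296, minus strand) had 549.0, 469.3, 502.6 and 385.3 TPM in KO microglia, against 1579.5, 1613.2, 1474.1 and 1783.0 TPM in WT microglia. The groups lay far apart, with every KO library below every WT library. The mean was 477 ± 69.1 TPM in KO microglia and 1612 ± 128 TPM in WT microglia (SD, n = 4 each), which puts KO microglia at 29.6% of the WT level. The difference was -1.77 in log2(TPM + 1) (SE 0.12, 95% interval -2.02 to -1.51, limma adjusted p = 4.1e-06), and it was -1.75 against the WT animals without Y-linked RNA and -1.78 against those with it. Cx3cr1 still ranked between place 307 and place 438 of all genes in KO microglia, against places 69 to 80 in WT microglia. The lncRNA Gm33858 overlaps the gene and shares 19 of the 4442 stretches of 61 bases in the transcripts of Cx3cr1. It was listed at 26.5 to 51.3 TPM in KO microglia and 85.9 to 124.7 TPM in WT microglia, and since the strand setting of the counting is not given, reads of the 2 genes may be mixed. The driver allele lies in this gene, and its part in the Cx3cr1 values was not tested.

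Transcription factors known to maintain microglial identity did not all pass the threshold. Of 8 regulators of microglial gene expression, 0 rose, 3 fell and 5 did not pass the threshold in KO microglia, with a median difference of -0.40 in log2(TPM + 1). Over all genes tested in this comparison 28.4% were called, 14.2% higher and 14.2% lower. Sall1, a repressor that marks mature microglia, had 11.8 ± 2.67 TPM in KO microglia and 121 ± 8.75 TPM in WT microglia (SD, n = 4 each), a difference of -3.27 (limma adjusted p = 4.9e-07). Mef2a, a factor of microglial enhancers, fell by 1.43 on the log2 scale (limma adjusted p = 5.6e-05). Spi1, which encodes PU.1, did not pass the threshold, with 27.7 ± 6.22 TPM in KO microglia and 23.3 ± 5.53 TPM in WT microglia, and it is named here after its values were seen because its motif is searched above.

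Cx3cl1 (chr8:94772180-94782427, plus strand), the ligand, went the opposite way at a low level. It had 2.6, 5.6, 2.3 and 1.8 TPM in KO microglia, against 0.1, 0.3, 0.8 and 0.4 TPM in WT microglia, without overlap. Means were 3.08 ± 1.72 TPM in KO microglia and 0.40 ± 0.29 TPM in WT microglia (SD, n = 4 each), and the difference was 1.48 in log2(TPM + 1) (SE 0.29, 95% interval 0.84 to 2.13, limma adjusted p = 0.0037). Cx3cl1 reached the level for testing only through the 4 KO libraries, since no WT library reached 1 TPM. In a fit with no filter on low values its limma adjusted p was 0.0112. The difference was 1.69 against the WT animals without Y-linked RNA and 1.28 against those with it. Neurons are the main known source of fractalkine, and the summed level of 8 neuron markers was 26.6, 72.6, 16.8 and 19.4 TPM in the same KO libraries, against 10.3, 10.3, 5.1 and 6.7 TPM in the WT libraries. None of the 8 was at 0 in all libraries of either group, Snap25 was the highest in both, and the KO library with the most Cx3cl1, from animal 2, also had the highest sum. The part of neuronal RNA in the Cx3cl1 difference was not tested. Against astrocytes, Cx3cl1 in KO microglia stood at 14.2% to 44.2% of its mean in KO astrocytes, while the median astrocyte marker stood at 0.374% to 0.404%. In WT microglia Cx3cl1 stood at 0.713% to 5.71% of its mean in WT astrocytes, and the median astrocyte marker at 0.0506% to 0.225%. Single astrocyte markers reached 6.29% in KO microglia and 8.0% in WT microglia. The part of astrocyte RNA in the Cx3cl1 values was not tested.

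**Figure D2:**
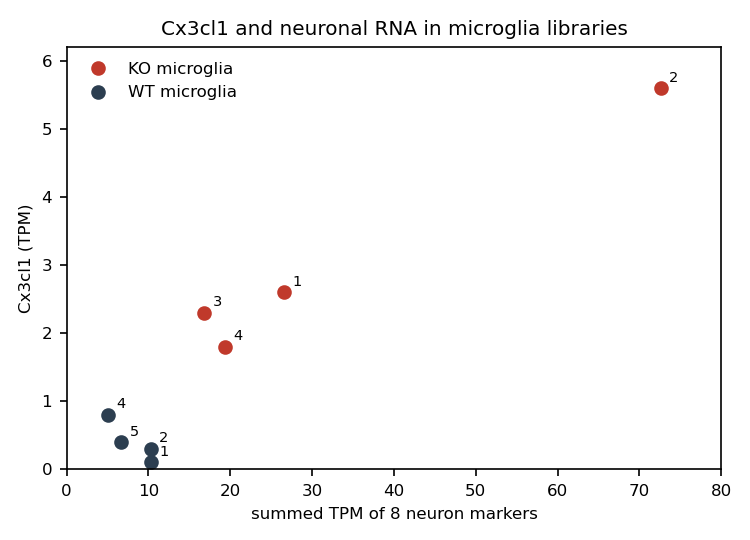
Cx3cl1 in TPM (vertical axis) against the summed TPM of 8 neuron markers (horizontal axis) in the microglia libraries, 1 point per library, numbered by animal. The 4 KO libraries, at 1.8 to 5.6 TPM of Cx3cl1, hold marker sums from 16.8 to 72.6 TPM, and the 4 WT libraries, at 0.1 to 0.8 TPM, hold sums from 5.1 to 10.3 TPM.

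All 3 genes of the proteases known to shed fractalkine were lower in KO microglia, where 14.2% of all genes tested were called lower. Ctss, the gene of cathepsin S, had 2853 ± 92.8 TPM in KO microglia and 7084 ± 115 TPM in WT microglia (SD, n = 4 each), a difference of -1.31 in log2(TPM + 1) (limma adjusted p = 5.9e-07). The membrane metalloproteases Adam10 and Adam17 fell by 1.49 and 0.95 (limma adjusted p = 5.8e-04 and 7.8e-04).

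The inflammatory CC receptors sat together on chromosome 9, and both were lower in KO microglia. Ccr1 (chr9:123962126-123968692, minus strand) had 13.9, 12, 11.8 and 12.9 TPM in KO microglia, against 22.8, 39.2, 43.5 and 67.4 TPM in WT microglia. The KO libraries were close to each other, the WT libraries were spread, and the groups did not overlap. The difference was -1.60 in log2(TPM + 1) (SE 0.27, 95% interval -2.21 to -0.99, limma adjusted p = 0.0018), with -1.18 against the WT animals without Y-linked RNA and -2.02 against those with it. Neutrophils also carry CCR1, and the 7 neutrophil markers summed to at most 1.4 TPM in KO microglia and at most 0.6 TPM in 3 of the WT libraries, with 40.4 TPM in WT animal 2. Ly6g was at 0 in both groups. Without that WT library the Ccr1 difference was -1.61 (limma adjusted p = 0.0046). The part of neutrophil RNA in the Ccr1 values was not tested.

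Ccr2 (chr9:124101918-124109140, plus strand), the receptor of CCL2 and a mark of monocytes that enter tissue, had 3.2, 4.0, 1.8 and 0.9 TPM in KO microglia, against 8.1, 7.3, 4.4 and 8.5 TPM in WT microglia. The highest KO library, at 4.0 TPM, was just below the lowest WT library, at 4.4 TPM. The difference was -1.28 in log2(TPM + 1) (SE 0.32, 95% interval -2.0 to -0.55, limma adjusted p = 0.0150). It was -1.42 against the WT animals without Y-linked RNA and -1.14 against those with it, where it did not pass (limma adjusted p = 0.0770). Monocyte markers were near 0, since the 10 markers summed to between 1.5 and 3.9 TPM in KO microglia and between 1.2 and 2.2 TPM in WT microglia. Chil3 was at 0 in both groups, Plac8 in KO microglia and Vcan in WT microglia. The 10 lymphocyte markers summed to between 3.7 and 8.2 TPM in KO microglia and between 0.2 and 16.2 TPM in WT microglia, with Ncr1 at 0 in both. Markers of border-associated macrophages, which can carry these receptors, summed to between 6252 and 6986 TPM in KO microglia, against 480 to 860 TPM in WT microglia. Of that list 11 genes were tested, 7 rose, 2 fell and 2 did not pass, Pf4 and Mrc1 being the highest. Among all genes tested 14.2% were called higher and 14.2% lower. Cd209f fell by 1.43 and Cbr2 by 0.54 on the log2 scale (limma adjusted p = 0.0020 and 0.0283). Lyve1 and Cd163 did not pass, and these 4 genes are named after their values were seen. The part of border-associated macrophages in the receptor values was not tested.

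Going along chromosome 9 the order is Ccr1, Ccr1l1, Ccr3 and Ccr2. Mean levels in KO microglia were 12.7, 2.78, 0.20 and 2.48 TPM along that order, against 43.2, 4.05, 1.5 and 7.07 TPM in WT microglia. Ccr1 and Ccr2 passed the test, and Ccr3 was below the level for testing. Ccr1l1 did not pass, its difference being 0.0023 in log2(TPM + 1), and its WT mean held a library at 10.1 TPM. Of the 6748 stretches of 61 bases in Ccr2 transcripts, 100 also occur in other genes, so reads of other genes may be mixed into the Ccr2 values. The share of such reads depends on the levels of those genes, and their part in the Ccr2 difference was not tested. Cx3cr1 and Ccrl2 are on the same chromosome outside this group, with 8991164 bases between them.

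The chemerin receptors did not pass the threshold in microglia. Ccrl2 (chr9:111054834-111057518, minus strand) had 13.8, 16.8, 16.3 and 13.6 TPM in KO microglia, against 16.2, 15.9, 14.5 and 13.8 TPM in WT microglia, and the ranges overlapped almost entirely. The difference was -0.00077 in log2(TPM + 1), with a 95% interval from -0.29 to 0.29 (limma adjusted p = 0.998). Cmklr1 (chr5:113612355-113650475, minus strand) had 9.4, 10.8, 13.2 and 10.7 TPM in KO microglia, against 6.5, 19.6, 16.9 and 16.7 TPM in WT microglia. The KO values lay between the lowest WT library, from animal 1, and the other 3. The difference was -0.32 (SE 0.30, 95% interval -0.99 to 0.36, limma adjusted p = 0.491). Without WT animal 1 it was -0.65 and passed (limma adjusted p = 0.0144), and against the WT animals with Y-linked RNA it was -0.57 and passed (limma adjusted p = 0.0342), while against those without it was -0.06. The lncRNA Gm15736 overlaps Cmklr1 and was listed at 2.9 to 5.4 TPM in KO microglia and 3.4 to 9.4 TPM in WT microglia.

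The CXCL12 receptors were near the lower end of detection in microglia and were not in the fit there. Cxcr4 (chr1:128588199-128592299, minus strand) had 0.6, 0.8, 1.5 and 1.3 TPM in KO microglia, against 0, 0.1, 0 and 0.4 TPM in WT microglia. The groups did not overlap, the difference was 0.86 in log2(TPM + 1), and the exact two-sided permutation p was 0.0286, the smallest possible. In a fit with no filter on low values its limma adjusted p was 0.0140. Ackr3 (chr1:90203980-90215724, plus strand) had 0.6, 0, 0.5 and 0.1 TPM in KO microglia, against 2.3, 0.1, 1.7 and 1.9 TPM in WT microglia. WT animal 2 fell within the KO range, and the difference of -0.86 had an exact two-sided permutation p of 0.114 and a limma adjusted p of 0.170 with no filter.

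**Figure D3:**
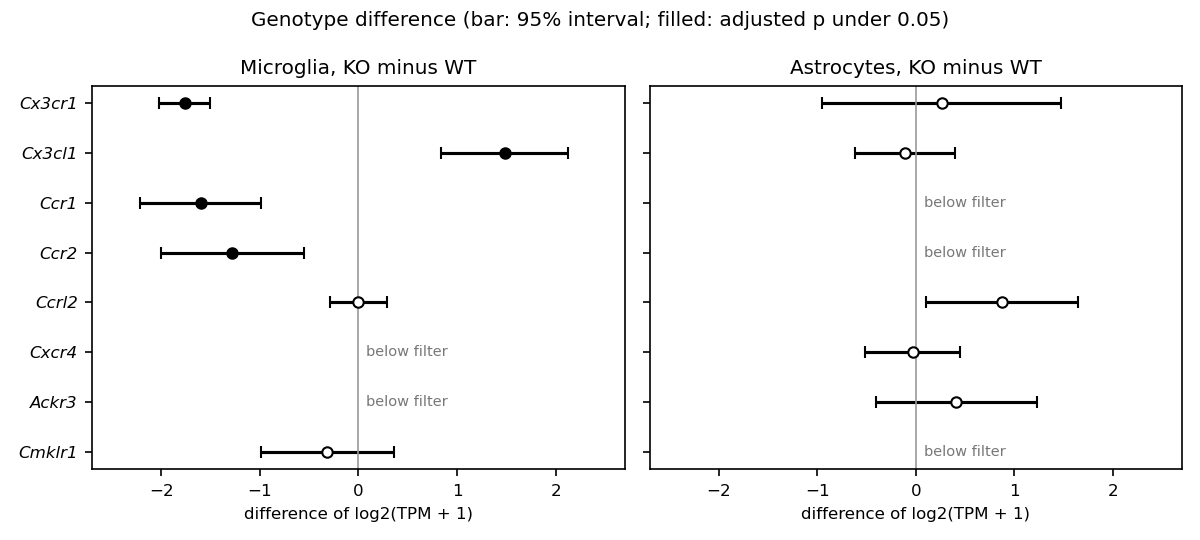
Difference of mean log2(TPM + 1) between KO and WT libraries (horizontal axis) for each of the 8 genes, in microglia on the left and astrocytes on the right. Points are estimates, bars 95% intervals of limma, filled points have an adjusted p under 0.05, and genes below the level for testing have no point. Filled points are Cx3cr1, Cx3cl1, Ccr1 and Ccr2 in microglia, and no point is filled in astrocytes.

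In astrocytes 5 of the 8 genes were tested and 0 passed the threshold with limma, while 1 of them, Ccrl2, had an unadjusted p under 0.05. Calls were rare in this comparison, 0.00657% of 15231 genes, the called gene being Usp18, an interferon-induced protease gene named here after its values were seen. The median difference over the 5 genes was 0.26 in log2(TPM + 1), against 0.07 over all genes tested. Cx3cl1 had 16.2, 13.4, 10.9 and 10.2 TPM in KO astrocytes, against 16.2, 14.4, 11.9, 19.1 and 8.5 TPM in WT astrocytes. The KO range lay within the WT range, and the difference was -0.11 (95% interval -0.62 to 0.40, limma adjusted p = 0.865).

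Ackr3, the CXCL12 scavenger, was the most abundant of the 8 genes in astrocytes, at 49.2, 26.0, 90.4 and 30.6 TPM in KO astrocytes and 34.9, 24.4, 20.8, 49.4 and 40.9 TPM in WT astrocytes. Ccrl2 had 10.7, 4.4, 15.4 and 5.3 TPM in KO astrocytes, against 4.7, 2.4, 2.9, 5.2 and 5.1 TPM in WT astrocytes. Among KO libraries both genes were highest in animals 1 and 3, while KO animals 2 and 4 were near or within the WT range. The differences were 0.41 for Ackr3 (95% interval -0.41 to 1.23, limma adjusted p = 0.654) and 0.87 for Ccrl2 (95% interval 0.10 to 1.64, limma adjusted p = 0.362). The 9 mural cell markers, led by Vtn and Rgs5, summed to 6653, 764, 10164 and 3796 TPM in KO astrocytes, against 433, 210, 1106, 3362 and 3045 TPM in WT astrocytes. The 8 endothelial markers, led by Cldn5, summed to 465, 34.1, 254 and 140 TPM in KO astrocytes, against 52.7, 30.1, 77.3, 144 and 90.9 TPM in WT astrocytes. None of these markers was at 0 throughout either group, both sums were highest in KO animals 1 and 3, and their part in the Ackr3 and Ccrl2 values was not tested. Cxcr4 had 0.9, 0.8, 1.0 and 0.7 TPM in KO astrocytes, against 1.6, 0.3, 1.0, 1.1 and 0.7 TPM in WT astrocytes, a difference of -0.03 (limma adjusted p = 0.962).

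The microglial receptors were found in astrocyte libraries at traces. Cx3cr1 had 8.8, 0.7, 0.5 and 1.6 TPM in KO astrocytes, against 1.0, 3.3, 2.1, 0.4 and 1.0 TPM in WT astrocytes (difference 0.26, 95% interval -0.95 to 1.47, limma adjusted p = 0.866). Set against the mean of microglia of the same genotype, these were 1.85%, 0.147%, 0.105% and 0.336% in KO astrocytes and between 0.0248% and 0.205% in WT astrocytes. The median of 12 microglia markers stood at 1.64%, 0.103%, 0.354% and 0.291% of the microglial mean in the same KO libraries and between 0.0269% and 0.233% in the WT libraries. The library of KO animal 1 was the highest for both Cx3cr1 and the markers. Cmklr1 was at no more than 0.1 TPM in any astrocyte library. Ccr1 had 0.9, 0, 0.1 and 0.1 TPM in KO astrocytes and 0 TPM in all 5 WT astrocyte libraries (exact two-sided permutation p = 0.0952).

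As a percent of the microglial mean, Ccrl2 in astrocytes of both genotypes, and Ccr2 in KO astrocytes, stood above the median of the microglia markers in every library. In some libraries other values did too. These were Ccr1 in KO astrocytes 1, 3 and 4 (7.11%, 0.791% and 0.791%) and Ccr2 in WT astrocytes 3 and 5 (1.41% and 7.07%). Cmklr1 was above it in KO astrocytes 3 and 4 (0.907% each) and WT astrocytes 4 and 5 (0.670% each). The values behind these percents were at most 0.9 TPM. In TPM, Ccr2 in KO astrocytes was at 0.4 to 1.2, beside 0.5 to 8.8 for Cx3cr1 in the same libraries. Ccr2 had 1.2, 0.4, 0.6 and 1.2 TPM in KO astrocytes, against 0, 0, 0.1, 0 and 0.5 TPM in WT astrocytes. Only the KO value of 0.4 TPM fell below the highest WT value, and the difference of 0.72 in log2(TPM + 1) had an exact two-sided permutation p of 0.0317, where 0.0159 is the smallest possible, and a limma adjusted p of 0.324 in a fit with no filter. These levels were 16.2% to 48.5% of the mean in KO microglia, and 0% to 7.07% of the mean in WT microglia. Ccrl2 in astrocytes was at 29.1% to 102% of the mean of KO microglia and at 15.9% to 34.4% of that of WT microglia. Single microglia markers reached up to 13.3% in KO astrocytes and 1.27% in WT astrocytes. The microglial means behind these percents were themselves lower in KO microglia for Ccr2, at 2.48 TPM against 7.07 TPM in WT microglia. Of the 12 markers 9 also fell in KO microglia, which raises the percents of KO astrocytes.

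**Figure D4:**
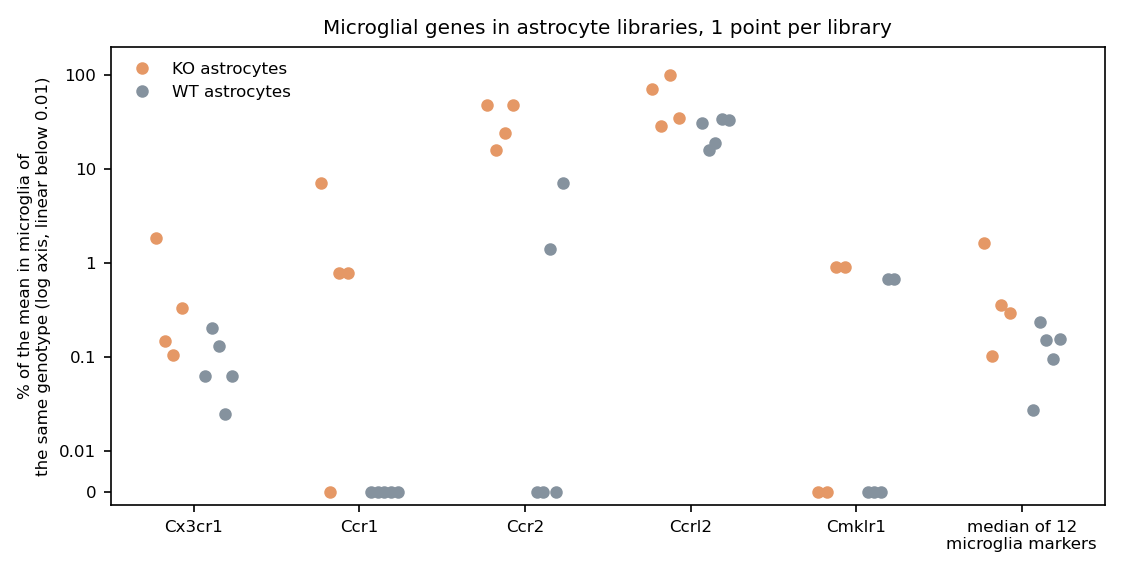
Level of the 5 receptor genes that were higher in microglia, and the median of 12 microglia markers, in each astrocyte library as a percent of the mean in microglia of the same genotype (vertical axis, logarithmic, linear below 0.01). Each point is 1 library of KO or WT astrocytes. Cx3cr1 lies between 0.0248% and 1.85% and the marker median between 0.0269% and 1.64%, while Ccrl2 lies between 15.9% and 102%.

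The KO effect was then compared between microglia and astrocytes in 1 fit over 17 libraries, in which all 8 genes were tested. With limma 2 had a more positive and 3 a more negative effect in microglia, and 3 did not pass, where 15.5% of 17087 genes were called, 6.63% more positive and 8.87% more negative. The KO effect in microglia minus that in astrocytes was -1.90 for Ccr1 (SE 0.35, adjusted p = 0.0011), -1.99 for Ccr2 (SE 0.39, adjusted p = 0.0016) and 1.59 for Cx3cl1 (SE 0.37, adjusted p = 0.0073). The Ccr1 and Ccr2 differences passed under every alternative in which they were tested. Both genes were below the level for testing in astrocytes alone, with WT astrocyte means of 0 TPM for Ccr1 and 0.12 TPM for Ccr2. A fall in KO astrocytes could hardly be seen at such levels, so these differences largely repeat those in microglia. The Cx3cl1 difference was lost with a pseudocount of 5 TPM and with the WT animals with Y-linked RNA alone (limma adjusted p = 0.0703 and 0.0932). The difference for Cx3cr1 was -2.03 (SE 0.62, limma adjusted p = 0.0349) and that for Cxcr4 was 0.89 (SE 0.28, limma adjusted p = 0.0432), and both calls were close to the threshold. That of Cx3cr1 ended when WT microglia 1, 2, 4 or 5, WT astrocytes 1, 4 or 5, KO microglia 2, 3 or 4 or KO astrocytes 4 was left out (limma adjusted p = 0.0513 to 0.0701, difference -2.07 to -1.84). It was -1.71 with the WT animals without Y-linked RNA alone and -2.24 with those with it, and passed in neither (limma adjusted p = 0.236 and 0.0793). That of Cxcr4 ended when WT microglia 1, 2 or 4, WT astrocytes 1, 3 or 4, KO microglia 2, 3 or 4 or any KO astrocyte library was left out (limma adjusted p = 0.0503 to 0.0907, difference 0.78 to 0.95). It was 0.94 and 0.83 with the WT animals without and with Y-linked RNA, and passed in neither (limma adjusted p = 0.151 and 0.0716). Ccrl2 (-0.87, 95% interval -1.72 to -0.03), Ackr3 (-1.27, 95% interval -2.42 to -0.12) and Cmklr1 (-0.33, 95% interval -1.02 to 0.36) did not pass.

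Across cell types 5 of the 8 genes were higher in microglia libraries and 2 in astrocyte libraries, with Cxcr4 low throughout. The 8 neuron markers summed to 51.2 to 134.4 TPM in KO astrocytes and 28.6 to 62.2 TPM in WT astrocytes. The 8 oligodendrocyte markers summed to 5848.7 to 14652 TPM in KO astrocytes and 3852.5 to 5837.5 TPM in WT astrocytes. The part of other cell types in the values of astrocyte libraries was not tested. In KO microglia against KO astrocytes 7 genes were tested and 7 called, 5 higher and 2 lower in microglia, where 69.4% of all genes were called, 26.4% higher and 42.9% lower. In WT microglia against WT astrocytes 7 were tested and 7 called in the same directions, where 65.7% of all genes were called, 26.2% higher and 39.5% lower. In WT mice Ccr1, Ccr2 and Cmklr1 reached the level for testing only through microglia, and Cx3cl1 only through astrocytes. In KO mice Ccr1 and Cmklr1 reached it only through microglia, and Ackr3 only through astrocytes. The filter favours calls of such genes, so these counts are a description. Cx3cr1 was 7.38 higher in microglia of KO mice and 9.41 higher in microglia of WT mice in log2(TPM + 1). Ackr3 differed by -5.13 in KO mice and -3.86 in WT mice, and Cx3cl1 by -1.81 in KO mice and -3.40 in WT mice, both being lower in microglia (limma adjusted p at most 2.2e-04). Ccr1 differed by 3.47 in KO mice and 5.37 in WT mice, and Cmklr1 by 3.51 and 3.84 in the same order. Ccr2 differed by 0.84 in KO mice (limma adjusted p = 0.0327) and 2.84 in WT mice, and Ccrl2 by 0.84 in KO mice (limma adjusted p = 0.0446) and 1.71 in WT mice. Both calls in KO mice were close to the threshold. With the animal as a block Ccr2 no longer passed (limma adjusted p = 0.0542), and it did not pass without KO microglia 1 or 2 or KO astrocytes 2 or 3 (0.0774 to 0.0854). Ccrl2 did not pass without any KO microglia library or without KO astrocytes 2 or 4 (0.0670 to 0.116). With no filter on low values neither passed (limma adjusted p = 0.0590 for Ccr2 and 0.0696 for Ccrl2). Counting every alternative, the Ccr2 call was lost in 7 of 18 and the Ccrl2 call in 9 of 19 (limma adjusted p up to 0.0974 and 0.168). Over all genes tested the median difference between cell types was -0.24 in KO mice and -0.19 in WT mice, and 0.11 in both after quantile normalization, so small differences are relative to that shift.

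Read by range, Cx3cr1 ordered the groups as WT microglia, KO microglia and then the astrocytes, whose genotypes overlapped. Ccr1 gave the same order. Ccr2 separated WT microglia from the rest, while KO microglia and KO astrocytes overlapped, as did the astrocytes of both genotypes. For Cmklr1 the microglia of both genotypes overlapped and stood above both kinds of astrocyte. For Ccrl2 each group overlapped with the next in the order KO microglia, WT microglia, KO astrocytes and WT astrocytes. Cx3cl1 had overlapping astrocyte groups on top, then KO microglia, then WT microglia. Ackr3 had overlapping astrocyte groups on top and overlapping microglia below, and Cxcr4 was lowest in WT microglia, which did not overlap with KO microglia or KO astrocytes but did with WT astrocytes.

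Among 26 receptor genes of the chemokine and chemerin families, Cx3cr1 held the largest share in microglia of both genotypes, and the total was lower in KO microglia. The summed level was 691 ± 89.8 TPM in KO microglia and 2451 ± 240 TPM in WT microglia (SD, n = 4 each), with ranges of 570 to 786 TPM in KO and 2281 to 2794 TPM in WT libraries. Cx3cr1 made up 68.9% ± 1.44 of it in KO microglia and 65.9% ± 2.28 in WT microglia. Cxcr3 made up 7.64% ± 1.43 in KO microglia and 0.410% ± 0.338 in WT microglia. Its share was 0.135% and 0.103% in WT animals 1 and 2, without Y-linked RNA, and 0.741% and 0.662% in WT animals 4 and 5, with it. Ccrl2, whose level differed little, made up 2.21% ± 0.310 in KO microglia and 0.622% ± 0.0910 in WT microglia. In astrocytes Ackr3 made up 67.0% ± 7.25 in KO libraries (n = 4) and 70.4% ± 8.11 in WT libraries (n = 5) of a far smaller sum, 39.3 to 117 TPM in KO and 31.4 to 83.8 TPM in WT astrocytes. Shares are parts of a whole and are not independent of each other.

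**Figure D5:**
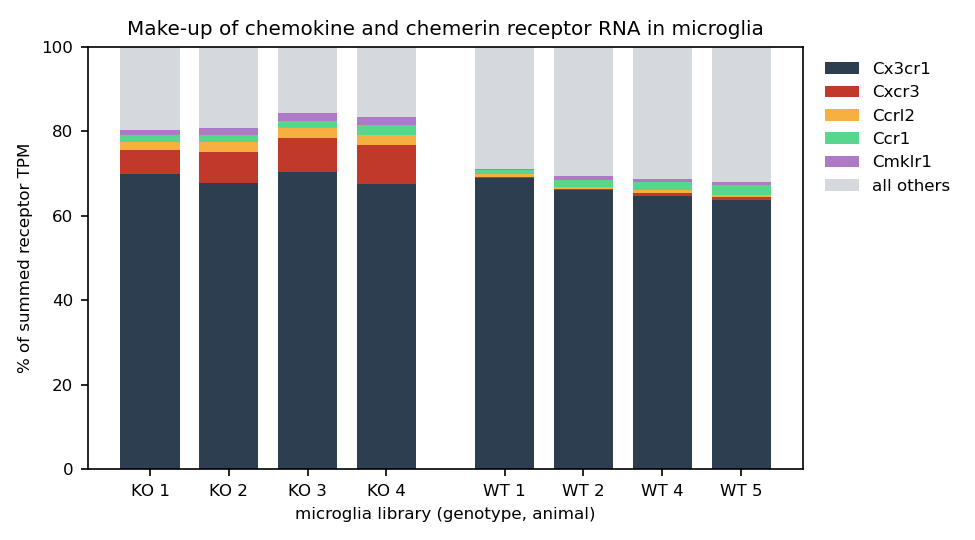
Share of each receptor gene in the summed TPM of 26 chemokine and chemerin receptor genes (vertical axis, percent) in each KO and WT microglia library, numbered by animal. Colours mark Cx3cr1, Cxcr3, Ccrl2, Ccr1 and Cmklr1, and grey all others. Cx3cr1 makes up 63.8% to 70.4% of every bar, and Cxcr3 has a larger share in KO than in WT libraries.

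The other receptors and the ligands give the setting of these genes in microglia. Of 19 further receptor genes 4 were tested, 1 rose, 1 fell and 2 did not pass, with a median of 0.02 in log2(TPM + 1). Among all genes tested in microglia 14.2% were called higher and 14.2% lower. Cxcr3, a receptor of interferon-induced chemokines, had 51.9 ± 5.14 TPM in KO microglia and 10.3 ± 8.63 TPM in WT microglia (SD, n = 4 each), a difference of 2.65 (limma adjusted p = 0.0054). The WT libraries were spread from 2.5 to 18.5 TPM, against 46.0 to 58.4 TPM in KO libraries. Its share of receptor TPM was larger in the WT animals with Y-linked RNA, and the difference against each kind of WT animal was not fitted.

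Of 13 ligand genes 12 were tested in microglia, 7 rose, 2 fell and 3 did not pass, with a median of 1.61. The shares over all genes tested were 14.2% higher and 14.2% lower. Ccl12 and Ccl2, ligands of CCR2, and Ccl7, a ligand of CCR1 and CCR2, were among those that rose. Ccl12 had 7454 ± 566 TPM in KO microglia and 382 ± 37.6 TPM in WT microglia (SD, n = 4 each, difference 4.28, limma adjusted p = 8.9e-09). Ccl7 had 1371 ± 260 TPM in KO microglia and 31.2 ± 6.17 TPM in WT microglia (difference 5.42, limma adjusted p = 5.5e-08), and Ccl2 had 401 ± 31.7 TPM in KO microglia and 35.1 ± 14.6 TPM in WT microglia (difference 3.59, limma adjusted p = 1.7e-05). Ccl9, a ligand of CCR1, had 17.1 ± 2.53 TPM in KO microglia and 258 ± 13.1 TPM in WT microglia (difference -3.85, limma adjusted p = 5.3e-08). The genes of the CXCR4 and ACKR3 ligand Cxcl12 and of chemerin, Rarres2, were tested and did not pass.

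Downstream of the receptors, 20 genes of G protein and arrestin signalling were tested in microglia, and 1 rose, 7 fell and 12 did not pass, with a median of 0.05. Beside them, 28.4% of all genes tested were called, 14.2% higher and 14.2% lower. Rgs2 and Rgs10, which speed the shut-off of G proteins, fell by 1.55 and 1.02 on the log2 scale (limma adjusted p = 1.4e-06 and 4.5e-05). Elmo1, an adaptor of Rac activation, fell by 1.95, and Pik3r5, a subunit of the phosphoinositide kinase that G proteins activate, fell by 1.81 (limma adjusted p = 5.5e-06 and 4.6e-05). Arrb2, an arrestin gene, rose by 0.46 (limma adjusted p = 0.0032), while Arrb1, another arrestin gene, did not pass (0.05, limma adjusted p = 0.876), and both are named after their values were seen.

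In astrocytes no gene of these lists passed the threshold with limma, and the values of smallest p are given. Cxcr6 had 2.95 ± 1.24 TPM in KO astrocytes (n = 4) and 0.36 ± 0.45 TPM in WT astrocytes (n = 5), a difference of 1.53 (limma adjusted p = 0.221), and Ackr1 differed by -1.45 (0.413). Ccl7 differed by 2.87 (0.247) and Ccl12 by 3.37 (0.272), both ligand genes with high levels in KO microglia. Adam10 differed by 0.48 (0.334) and Adam17 by 0.23 (0.544). Gnb1 differed by 0.38 (0.284), Gnai3 by 0.41 (0.288) and Mef2c by 0.50 (0.472).

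The genes most like each of the 8 in log2(TPM + 1) over the 17 libraries were found among 10426 genes whose mean reached 5 TPM in some group. Those libraries share 2 cell types and 2 genotypes, so Pearson's r is a description of likeness over these groups. For Cx3cr1 they were Itgb2 (0.997), Trem2 (0.996) and Pld4 (0.996), and for Cx3cl1 Fam213a (0.977), Ndrg4 (0.971) and Acbd4 (0.970). For Ccr1 they were Inpp5d (0.994), Gna15 (0.992) and Ppfia4 (0.992), and for Cmklr1 Csf2rb2 (0.993), Gmip (0.992) and Brip1os (0.991). Ccr2 was most like Vrk1 (0.951), Serinc4 (0.950) and Elmo1 (0.948), and Ccrl2 most like Ifi35 (0.950), BC028528 (0.947) and Fam118b (0.944). Ackr3 was most like Mxra8 (0.984), Rasl11a (0.980) and Itih5 (0.979), and Cxcr4 most like Sepn1 (0.898), Sh3pxd2b (0.835) and Ctdsp1 (0.835).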

How the data were processed

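RNA of sorted mouse microglia and astrocytes was read as 61 bp pairs, per the labels. The authors deposited TPM values, 1 file per library with 1 decimal, and each library sums to the same total within rounding, so depth is unknown and no counting interval is given. The submitters' processing notes list STAR 2.6.1e, featureCounts 1.6.2, Trim Galore 0.4.2, cutadapt 1.9.1 and the build mm10; the annotation, strand setting and treatment of reads with several matches are not given in the sources used here. Groups follow the cell type and genotype of the labels. Libraries were labelled as separate animals, microglia and astrocytes with 1 title number being taken as 1 animal.

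TPM values were transformed to log2(TPM + 1), and a gene entered a fit where 4 or more of its libraries reached 1 TPM. The test was that of limma 3.58.1 (R 4.3.3, variance trend, two-sided), with Benjamini-Hochberg adjustment over all genes tested and a threshold of 0.05. Intervals are 95% intervals for each gene and are not adjusted. Genes below that level were compared with exact permutation tests in scipy 1.17.1. The procedure was also run on simulated data with independent noise for each gene and library, without shared animals or rounding of values. Its outcome is not given here. Where libraries were left out, the genes of the full fit were kept. Alternatives were a fit over all groups together, a block for the replicate number, array weights, no trend of the variance, other scalings, a pseudocount of 0.1 or 5 TPM, a filter of 5 TPM or none, each kind of WT animal and leaving out each library. Same-numbered microglia and astrocyte libraries share an animal, and their deviations from the group means correlated at 0.0389 to 0.229.

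Members and gene lists were chosen with earlier results of these data known. Named beside the members are Tgfb1, the genes of smallest p in each list (up to 4 past the threshold, otherwise 2), the highest marker genes and those at 0, and the 3 genes most like each member. Positions and promoters are from RefSeq GRCm38.p6, in which 32401 of the 35869 symbols were found. Some genes that these rules name are not reported here. Figures were made with matplotlib 3.10.9.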

Additional observations from a re-analysis of the deposited data

Results flagged for a closer look

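In 4 of 35 groups of 4 or 5 libraries checked, the highest library stood apart from the rest, where chance gives about 1 in 20. The KO astrocyte library of animal 1 stood apart for Cx3cr1, at 8.8 TPM, and for Ccr1, at 0.9 TPM. A WT astrocyte library stood apart for Ccr2, at 0.5 TPM, and a WT microglia library for Tgfb1, at 3.4 TPM.

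The KO effect differed between microglia and astrocytes in the contrast over all 17 libraries (limma, adjusted p under 0.05) for 5 genes. Among them the Cx3cr1 call was lost in 16 of 29 alternatives and the Cxcr4 call in 18 of 28. The effect in microglia minus that in astrocytes was -2.03 for Cx3cr1, 1.59 for Cx3cl1, -1.90 for Ccr1, -1.99 for Ccr2 and 0.89 for Cxcr4 in log2(TPM + 1). Ccr1 and Ccr2 were near 0 in WT astrocytes, where a fall could hardly be seen.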

How the results depend on the processing

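Over all results and alternatives 854 of 956 values were scored as the same. A difference was the same if it kept its direction and its side of the threshold. A count of called genes was the same if it stayed within a set ratio of the main count. In microglia 4 of the 8 genes were called, and 2 with a filter at 5 TPM, under which Ccr2 and Cx3cl1 are not tested; 3711 genes in all were called, and 2079 with the replicate block. Replicate numbers of KO and WT mice share only a number (correlations of deviations from -0.113 to 0.206), and the block changed no call of the 8 genes between genotypes. The difference of Ccrl2 in microglia, near 0, turned positive with median-of-ratios scaling (0.027), quantile normalization (0.041), array weights (0.053) and only WT animals with Y-linked RNA (0.085), and lay between -0.050 and 0.045 with 1 library left out.

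In astrocytes 1 gene was called, against 3 with no filter, 0 with the replicate block, 85 in 1 fit over all groups, 3 and 2 with only WT animals without and with Y-linked RNA, 0 with KO astrocytes 2 and 4 alone, and 0 to 5 with 1 library left out; none was of the 8 genes in any of these. The Cxcr4 difference turned to 0.011 with a pseudocount of 0.1 TPM and to 0.0064 with only WT animals without Y-linked RNA, and that of Cx3cr1 to -0.047 with those animals and to -0.17 with KO astrocytes 2 and 4 alone, where that of Ackr3 was -0.20. That alternative was chosen after seeing the data and removes the 2 highest KO values of Ackr3, so its smaller difference follows from how it was built. With 1 library left out the ranges were -0.33 to 0.57 for Cx3cr1, -0.17 to 0.081 for Cxcr4 and -0.26 to 0.0061 for Cx3cl1. In the contrast of cell types 5 of the 8 genes were called, against 3 with a pseudocount of 5 TPM, no filter, a filter at 5 TPM or only WT animals without Y-linked RNA, 2 with only WT animals with it, and 3 to 5 with 1 library left out. Between WT cell types 10078 genes were called, and 6590 with only WT animals without Y-linked RNA, where fewer libraries enter. Values under 0.05 TPM are listed as 0, which limits Cxcr4 and Ackr3 in microglia and Ccr1, Ccr2 and Cmklr1 in astrocytes.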

Other observations

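The library left in no group has a title that names astrocytes and a sample code that ends like those of microglia. It held 1527.2 TPM of Cx3cr1, 0.6 of Cx3cl1, 33.9 of Ccr1, 6.8 of Ccr2, 15.4 of Ccrl2, 0 of Cxcr4, 1.5 of Ackr3 and 10.2 of Cmklr1. The microglia marker P2ry12 was at 3369.5 TPM there, and the astrocyte markers Slc1a2 and Aldh1l1 were at 0.5 and 0.7 TPM.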
